A study of Swertia japonica with 2 samples.

Results

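Swertia japonica, a gentian relative, is gathered for its bitter taste. The data described here are 67 assembled genes whose alternative transcript forms were divided unevenly between the roots and the aerial tissues of this plant. A form is 1 assembled transcript, called a unigene, and forms of 1 gene carry the identifier of the same assembled gene and differ in their form number. The members were chosen by a rule on the counts themselves. Unigenes whose identifier starts with TR were kept at 50 or more expected counts over both libraries. For each kept form the count over its library's total in roots was divided by that in aerial tissues, with a count under 3 set to 3. A gene entered when the highest of these ratios was at least 4 times the lowest, and all of its kept forms then became members. This gave 67 genes with 240 forms, out of 1962 genes with at least 2 kept forms, 12897 kept TR unigenes, 41426 TR unigenes and 81729 unigenes in all.

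The plants were 6 months old, grew outdoors in a medicinal garden and carried no treatment. Poly(A)-selected RNA of roots gave 1 library with 4207068 counts, and that of aerial tissues gave 1 library with 5351257 counts. Nothing in the sources used here says how many plants went into a library. With 1 library per organ, no test across samples was possible, so every ratio below describes these libraries. Exact intervals cover counting error only. Wilson intervals of shares treat the genes or forms as independent draws and hold no counting error of reads. The files pair the unigenes with no gene names, so neither organ could be checked against marker genes and no function is given to any member. In whole organs, fewer cells that hold a transcript and less of it per cell cannot be told apart.

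A plant gene can yield several RNAs. Alternative splicing joins different exons or keeps an intron, and alternative start and polyadenylation sites change the ends of the RNA. In plants, retained introns are a common kind of alternative splicing, and the balance between forms can differ from organ to organ. An assembly without a genome groups transcripts by shared sequence. Its forms of 1 gene can therefore also be alleles or recent gene copies, and fragments of 1 RNA can count as separate forms. Which of these any member is cannot be told from the files used here.

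By the counts and the minimum used here, divergence of this size was uncommon among genes with several forms. The 67 genes were 3.41% of the 1962 genes with at least 2 kept forms. At a minimum of 1 count 490 of 4122 genes reached it, and at 100 counts 28 of 1134. With a second set of root values, described below, 266 of 1329 genes outside the 67 reached it, and 26 of 37 among the 67. The ratio between the highest and the lowest form, called the spread here, had a median of 5.72 in the 67 genes and 1.30 in the other 1895. These values chose the genes and are given as a description. The spread was at least 8 in 24 of the 67 genes, at least 16 in 16, at least 32 in 6 and at least 100 in 2.

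**Figure D1:**
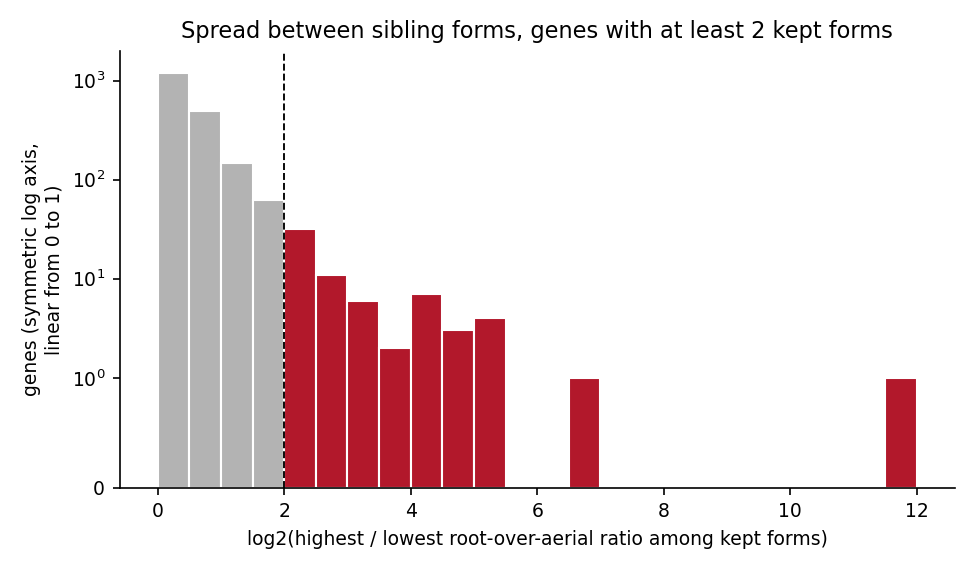
The horizontal axis gives the log2 spread between the highest and the lowest root-over-aerial ratio among the kept forms of a gene, and the vertical axis the number of genes out of 1962 on a symmetric log scale. The 67 genes lie right of the dashed line, 1196 genes lie in the leftmost bar, and 2 genes stand apart with a spread of at least 100.

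The threshold lies on a continuous slope. The genes just inside had spreads of 4.003, 4.02 and 4.04, and the genes just outside had 3.99, 3.93 and 3.92. The gene at 4.003 had 9 kept forms, with 37 counts in roots and 19 in aerial tissues for the highest form, and 18 and 37 for the lowest. The gene at 4.04 had 4 kept forms, with 85 counts in roots and 33 in aerial tissues for the highest form, and 97 and 152 for the lowest.

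The share of genes that entered was larger where more forms were compared. Members made up 28 of the 1419 genes with 2 kept forms (1.97%), 10 of the 333 with 3 (3.003%), 14 of the 117 with 4 (11.97%) and 15 of the 93 with 5 or more (16.1%). A gene with more forms has more pairs in which the highest and lowest can lie 4 times apart. The member genes had a median of 3 kept forms and up to 10.

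Depth was modest for single forms. A member had a median of 46 counts in roots and 57 in aerial tissues, and its 95% exact interval had a median half-width of 1.65-fold. The spread carries more error, because it divides 4 counts. Its exact interval excluded 1 in 65 of the 67 genes and lay wholly at or above 4 in 26. Picking the most extreme forms of each gene favours large spreads, which these intervals do not account for. The minimum count of a kept form and the spread asked for by the rule together already keep most such intervals away from 1. Nothing is therefore read from the 65 of 67. In the other 2 genes the call rests on the floor of 3 counts. One had forms at 0 and 2 counts in roots beside 51 and 224 in aerial tissues, and the other 0 and 2 beside 86 and 395. Both forms of either gene were far higher in aerial tissues, and with a floor of 1 count neither gene enters.

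Among the 240 forms, 38 were at least 4-fold higher in roots, against 5.15% of all kept TR unigenes and 5.27% of all unigenes with as many counts. Another 51 were 4-fold or more higher in aerial tissues, against 8.72% of all kept TR unigenes and 8.35% of all unigenes with as many counts. The rule used this contrast, so nothing is read from the difference to the background. The remaining forms were less biased: 35 lay between 2- and 4-fold higher in roots, 30 between 2- and 4-fold higher in aerial tissues, and 86 within 2-fold. Library totals left the median log2 ratio of kept TR unigenes at 0.29 in favour of roots. A spread within a gene does not depend on this scaling, whereas the side on which a form falls does. With edgeR's TMM factors or DESeq2's size factors, 13 genes rather than 15 had forms on opposite sides at 2-fold, the pattern described below.

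**Figure D2:**
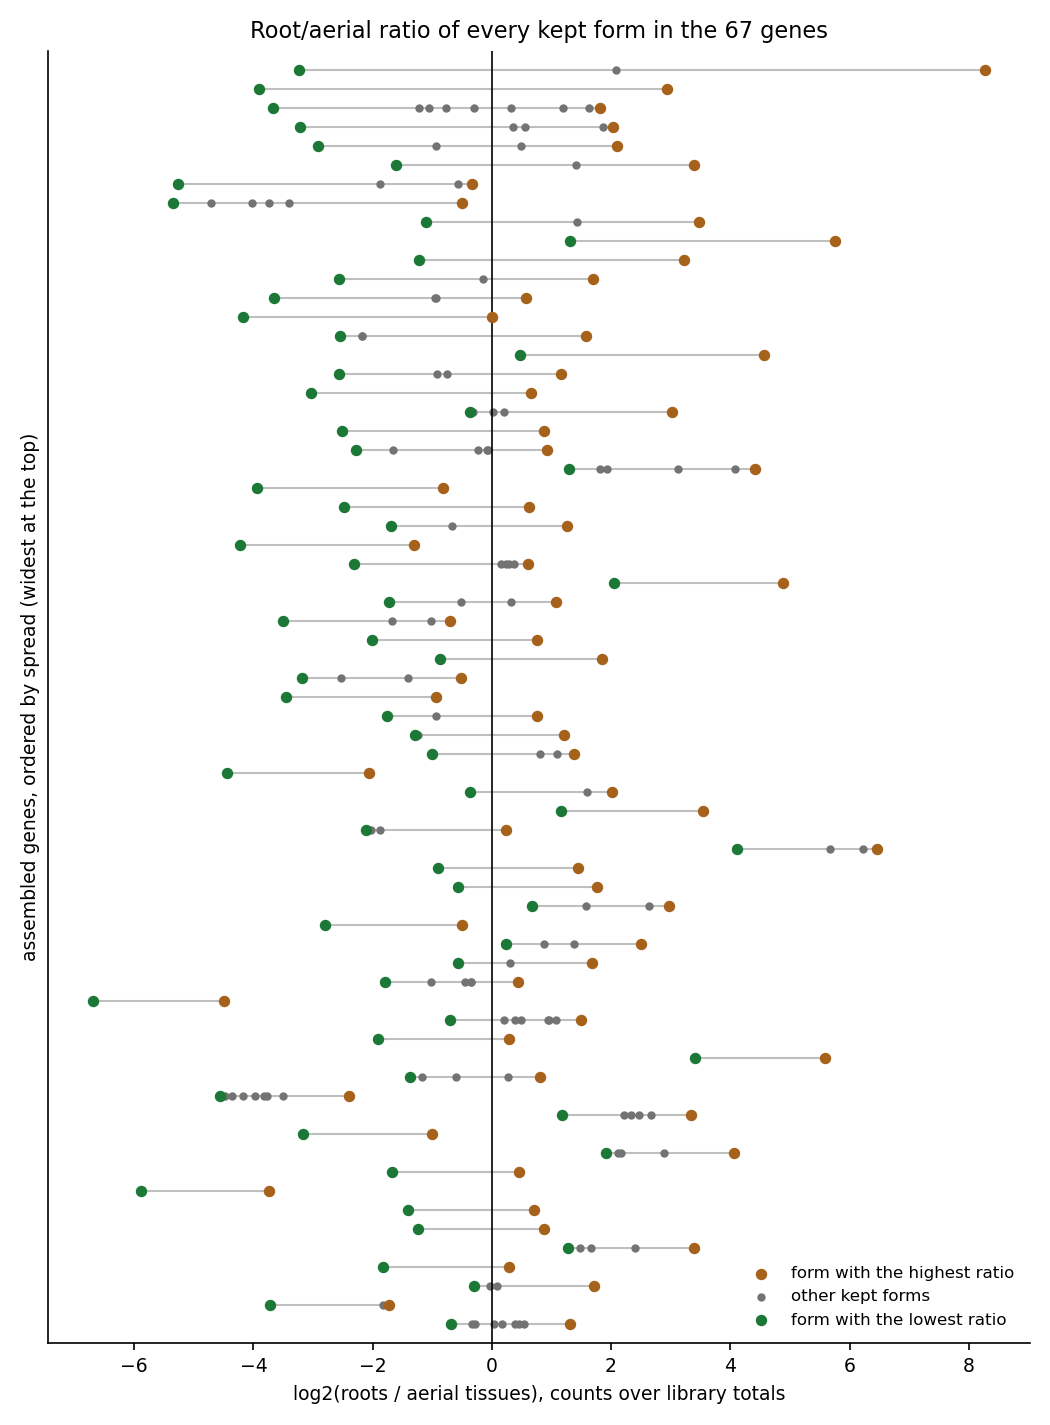
Each row is 1 of the 67 genes, ordered by spread with the widest at the top, and each point is a kept form placed by its log2 root-over-aerial ratio. Brown points mark the form with the highest ratio, green points the form with the lowest and grey points the rest. In 41 genes the row crosses the line of equal counts over library totals.

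With library totals as the scaling, the genes fell into 5 patterns by the 2-fold mark on either side. The number of genes in each pattern depends on this scaling, and only the first pattern was counted again with other factors. In 15 genes at least 1 form was 2-fold or more higher in roots while another was 2-fold or more higher in aerial tissues. In 25 genes 1 or more aerial-biased forms stood beside at least 1 form within 2-fold, with none biased to roots, and in 12 genes 1 or more root-biased forms did, with none biased to aerial tissues. In 9 genes every kept form was 2-fold or more higher in roots, and in 6 every kept form was 2-fold or more higher in aerial tissues.

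The 15 genes with forms on opposite sides of equality show the division of forms between organs most plainly. They were 0.765% of the genes with at least 2 kept forms, and forms on opposite sides at 2-fold have a spread of 4 or more by construction. Both near ends of the intervals of the opposed forms lay past equality in all 15 genes, and past 2-fold in 6. The minimum count of a kept form and the 2-fold mark together already place the near ends past equality. Nothing is therefore read from the 15 of 15. At 4-fold on both sides, 4 genes remained. In 12 of the 15 genes the summed counts of the forms differed by less than 2-fold between the organs. The share over all genes with at least 2 kept forms was 70.4%, and opposed forms partly offset each other in a sum.

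The widest spread belonged to a gene with 3 kept forms that changed places almost completely. Unigene55749 (826 bases) had 730 counts (256 TPM) in roots, against 2 counts (0.59 TPM) in aerial tissues. It was 310-fold higher in roots with the 2 aerial counts set to 3, with a 95% exact interval from the counts themselves of 128 to 3841. Unigene55750 of the same gene (726 bases) ran the other way, with 78 counts (32.35 TPM) in roots and 931 counts (322 TPM) in aerial tissues. It was 9.38-fold higher in aerial tissues (95% exact interval 7.44 to 11.98). The remaining form, 515 bases long, had 137 counts in roots and 41 in aerial tissues and was 4.25-fold higher in roots.

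Together the forms of this gene summed to 945 counts in roots and 974 in aerial tissues, a ratio of 1.23 after scaling. By TPM, Unigene55749 made up 67.2% of the gene in roots and 0.171% in aerial tissues, whereas Unigene55750 made up 8.49% in roots and 93.2% in aerial tissues. The spread between the 2 was 2904 with the floor, and its exact interval from the counts ran from 1147 to 36273.

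The second gene had 2 kept forms that exchanged the lead. Unigene63633 (1199 bases) had 120 counts (26.7 TPM) in roots and 20 counts (3.71 TPM) in aerial tissues. It was thus 7.63 times as high in roots (95% exact interval 4.73 to 12.9). Unigene63631 (625 bases) had 2 counts (1.02 TPM) in roots and 57 counts (24.2 TPM) in aerial tissues. With the 2 root counts set to 3 it was 14.9-fold higher in aerial tissues (95% exact interval 5.92 to 189). The gene summed to 122 counts in roots and 77 in aerial tissues, a ratio of 2.02 after scaling, and to 27.7 TPM in roots, against 27.9 TPM in aerial tissues.

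A gene with 5 kept forms came next by the strength of its opposed forms. Its form of 1222 bases had 262 counts (57.0 TPM) in roots and 81 counts (14.7 TPM) in aerial tissues. It was thus 4.11 times as high in roots (95% exact interval 3.20 to 5.35). Its form of 1072 bases had 25 counts (6.35 TPM) in roots and 295 counts (62.55 TPM) in aerial tissues, 9.28-fold higher in aerial tissues (95% exact interval 6.16 to 14.6). A form of 881 bases followed the root-biased one at 3.65-fold, and forms of 894 and 945 bases lay at 1.47- and 1.27-fold. The single aerial-biased form held 5.22% of the gene's TPM in roots and 59.1% in aerial tissues.

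Opposed forms also occurred in a gene of long transcripts, at lower levels and not in its leading form. This gene had 4 kept forms of 2424 to 3090 bases. The form that led in both organs stood at 11.1 TPM in roots, against 8.39 TPM in aerial tissues. Beside it, a form of 2741 bases had 74 counts in roots and 22 in aerial tissues, and a form of 2424 bases had 5 in roots and 48 in aerial tissues. These 2 minor forms were 4.28-fold higher in roots and 7.55-fold higher in aerial tissues, while the leading form was at a ratio of 1.40.

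A gene with 3 kept forms of nearly equal length gave a full exchange. Its form of 1108 bases had 165 counts in roots and 20 in aerial tissues. It was thus 10.5 times as high in roots (95% exact interval 6.58 to 17.6). Its form of 1174 bases had 36 counts in roots and 140 in aerial tissues, 3.06-fold higher in aerial tissues (95% exact interval 2.11 to 4.54). The root-biased form held 66.5% of the gene's TPM in roots and 11.5% in aerial tissues, while the other held 13.6% in roots and 74.98% in aerial tissues.

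**Figure D3:**
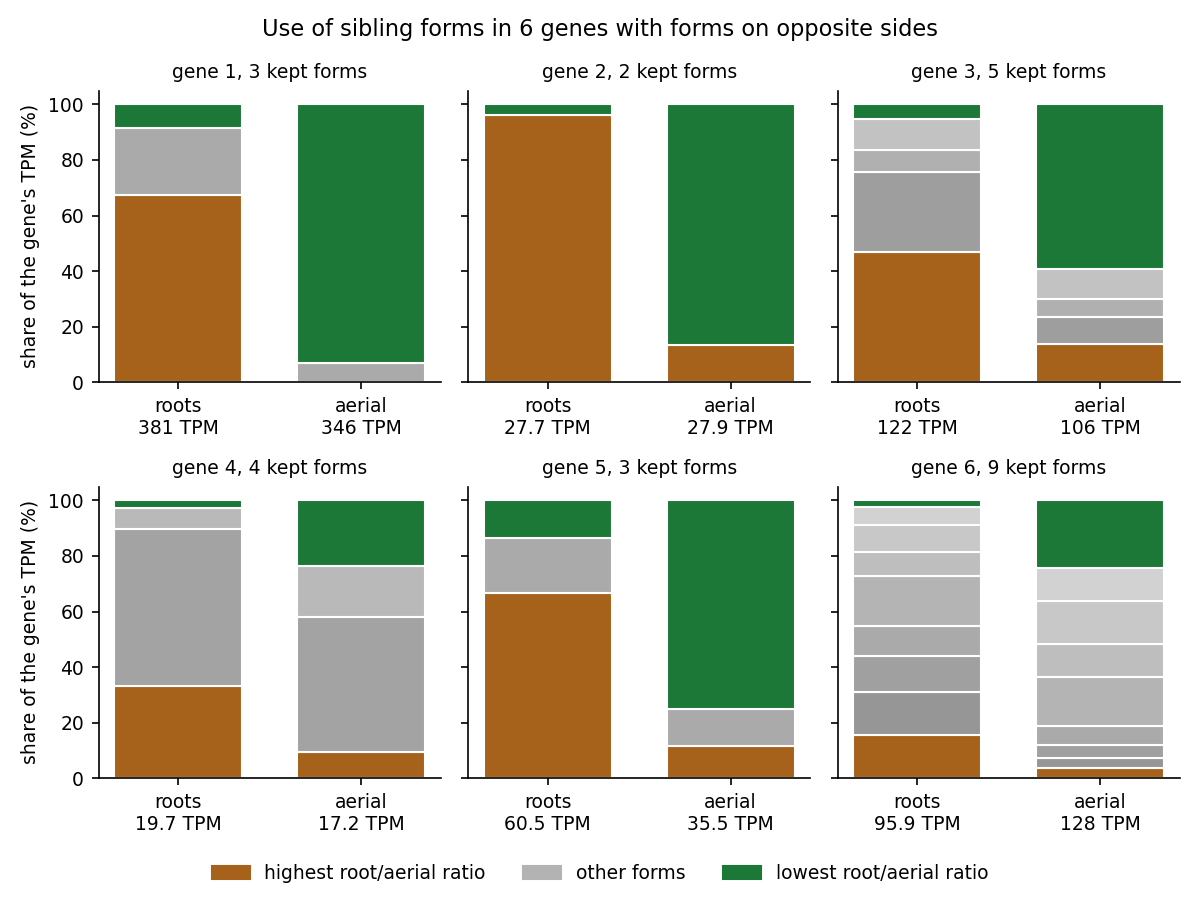
Stacked bars give the share of a gene's TPM held by each kept form in roots (left bar) and in aerial tissues (right bar), for the 6 genes whose opposed forms had the largest near-end folds. The summed TPM stands under each bar. Brown marks the form with the highest ratio and green the one with the lowest. In the first gene brown holds 0.171% in aerial tissues and green 93.2%.

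In a gene with 9 kept forms of 926 to 1265 bases, the highest form had 58 counts in roots and 21 in aerial tissues, 3.51-fold higher in roots. The ratios of the next 7 forms stepped down through 3.10, 2.29, 1.25, 0.815, 0.590, 0.482 and 0.430. The lowest form had 8 counts in roots and 130 in aerial tissues, 12.8-fold higher in aerial tissues (95% exact interval 6.29 to 30.2). Neighbours among the first 8 forms in this order had overlapping intervals, and the lowest form stood apart from the next one, whose ratio had an interval of 0.256 to 0.699 against 0.0331 to 0.159. No form led clearly in roots, where the largest share of TPM was 18.1%.

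In a gene with 2 kept forms, a form of 891 bases had 184 counts in roots and 25 in aerial tissues, 9.36-fold higher in roots. Its longer form of 1930 bases had 179 counts in roots and 531 in aerial tissues, 2.33-fold higher in aerial tissues. Over the 15 genes, the most root-biased form was 2.12- to 310-fold higher in roots, with a median of 3.51, and the most aerial-biased form 2.005- to 14.9-fold higher in aerial tissues, with a median of 5.82.

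Of the next genes in that ranking, the one with forms of 450 to 542 bases had 46 counts in roots and 18 in aerial tissues for its highest form. Its lowest form had 6 counts in roots and 45 in aerial tissues, 5.90-fold higher in aerial tissues. A gene with 4 forms of 1577 to 1663 bases had 305 counts in roots and 183 in aerial tissues for its highest form, and 22 and 92 for its lowest. A gene with 3 forms of 1864 to 3766 bases had 98 counts in roots and 52 in aerial tissues for its highest form, and 17 and 70 for its lowest. The gene ranked just below these, added after its values were seen, had 4 forms of 1542 to 2361 bases. Its shortest form was higher in roots, with 40 counts there and 17 in aerial tissues, and its other 3 were 4.50- to 5.82-fold higher in aerial tissues.

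In the 25 genes with aerial-biased beside balanced forms, the number of biased forms varied. One of these genes had 2 forms of similar length. The form of 871 bases was even, with 167 counts in roots and 212 in aerial tissues, a ratio of 1.00 (95% exact interval 0.813 to 1.23). Its form of 940 bases had 11 counts in roots and 253 in aerial tissues, 18.1-fold higher in aerial tissues (95% exact interval 9.94 to 36.7). In aerial tissues both forms stood near 60 TPM, at 58.0 and 62.95, while in roots they stood at 54.7 and 3.28 TPM.

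A gene of long forms had 4 kept forms. Its form of 3468 bases had 1 count in roots and 147 in aerial tissues, whereas its form of 2986 bases had 25 in roots and 40 in aerial tissues. With the single root count set to 3, the form of 3468 bases was 38.5-fold higher in aerial tissues (95% exact interval 20.4 to 4595). The form of 2986 bases was within 2-fold, at a ratio of 0.795 (95% exact interval 0.462 to 1.34). Of the remaining forms, one was within 2-fold and one, at 3121 bases, was 3.69-fold higher in aerial tissues. Over the 25 genes the lowest form was 2.36- to 40.6-fold higher in aerial tissues, with a median of 5.55, and it reached 4-fold in 17. In a gene with 6 kept forms the balanced form was the exception, with 25 counts in roots and 45 in aerial tissues, and the others were far higher in aerial tissues. These 3 examples were chosen after their values were seen.

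Of the 12 genes with root-biased beside balanced forms, 1 was among the 3 member genes with most counts. Its form of 1754 bases had 1721 counts (248 TPM) in roots and 92 counts (11.1 TPM) in aerial tissues. It was thus 23.8 times as high in roots (95% exact interval 19.3 to 29.7). Its form of 1773 bases had 934 counts (133 TPM) in roots and 859 counts (102 TPM) in aerial tissues, a ratio of 1.38 (95% exact interval 1.26 to 1.52). The first form held 65.1% of the gene's TPM in roots and 9.78% in aerial tissues. The spread was 17.2, with an exact interval of 13.6 to 21.9.

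Another gene with a root-biased form, chosen after its values were seen, had 5 kept forms. Its longest, at 4091 bases, had 127 counts in roots and 20 in aerial tissues. It was thus 8.08 times as high in roots (95% exact interval 5.02 to 13.7). The other 4 forms, of 2186 to 3580 bases, had ratios between 0.775 and 1.15, and each of their intervals included 1. Over the 12 genes the highest form was 2.48- to 23.8-fold higher in roots, with a median of 3.49.

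In the 9 genes with all forms higher in roots, the forms differed in how far they were biased. The widest had a form of 1746 bases with 128 counts in roots and 0 in aerial tissues, which was at least 54.3-fold higher in roots against the floor of 3 counts in the aerial library. Its 95% exact interval, which is two-sided and allows more than 3 counts for a 0, starts at 43.5. Its form of 1941 bases had 99 counts in roots and 51 in aerial tissues. It was thus 2.47 times as high in roots (95% exact interval 1.74 to 3.53). The most strongly root-biased gene as a whole had 4 forms that summed to 55.8-fold higher in roots, with single forms between 17.3- and 87.8-fold. Both genes were chosen after their values were seen.

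A gene with 6 short forms of 485 to 602 bases carried the highest summed root TPM of all members. It stood at 492 TPM in roots, against 91.8 TPM in aerial tissues, and its forms ranged in ratio from 2.45 to 21.4. A form of 559 bases led in roots, at 142 TPM there and 8.97 TPM in aerial tissues. In aerial tissues the leading form was one of 586 bases, at 59.1 TPM in roots, against 25.6 TPM in aerial tissues. The second set of root values, described below, gave another order of these 2 forms. There the form of 559 bases stood at 41.3 FPKM and that of 586 bases at 137 FPKM, against 149 and 61.95 FPKM in the root file.

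In the 6 genes with all forms higher in aerial tissues, the sums were 3.84- to 126-fold higher in aerial tissues. The values at the upper end, 72.1 and 126, come from the 2 genes that rest on the floor, whose sums of 2 root counts were set to 3. The other 4 genes lay between 3.84- and 14.7-fold. The member gene with most kept forms, 10, belongs here. Its sum was 104 counts in roots and 1943 in aerial tissues, 14.7-fold higher in aerial tissues. Its form of 2861 bases was 5.25-fold higher in aerial tissues (95% exact interval 3.34 to 8.64), and the other 9 lay between 11.4- and 23.7-fold. The interval of the least biased form overlapped that of the next one, at 6.74 to 20.7, and the interval of the gene's spread ran from 1.80 to 12.8. A gene in this pattern with 3 forms had 252 counts in roots and 1053 in aerial tissues for its form of 4135 bases. Its short form of 1296 bases had 21 counts in roots and 353 in aerial tissues, 13.2-fold higher in aerial tissues against 3.29-fold for the long one.

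The most abundant gene of the 67 was aerial-biased through its main form. That form, 1336 bases long, had 1480 counts (290 TPM) in roots and 13035 counts (2133 TPM) in aerial tissues, 6.92-fold higher in aerial tissues (95% exact interval 6.56 to 7.31). Its form of 1253 bases had 638 counts (135 TPM) in roots and 1152 counts (203 TPM) in aerial tissues, 1.42-fold higher in aerial tissues (95% exact interval 1.29 to 1.57). The same form led in both organs, with 68.3% of the gene's TPM in roots and 91.3% in aerial tissues.

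The summed counts of the kept forms lay within 2-fold between the organs in 31 of the 67 genes (46.3%; 95% Wilson interval 34.9 to 58.1). The background was 70.4% of all genes with at least 2 kept forms. The rule used the same counts, so nothing is read from the difference to the background. Of these 31 genes, 15 held a form at least 4-fold different between the organs, and 13 had a spread of at least 8. The sum differed 2-fold or more towards roots in 16 of the 67 genes and towards aerial tissues in 20.

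**Figure D4:**
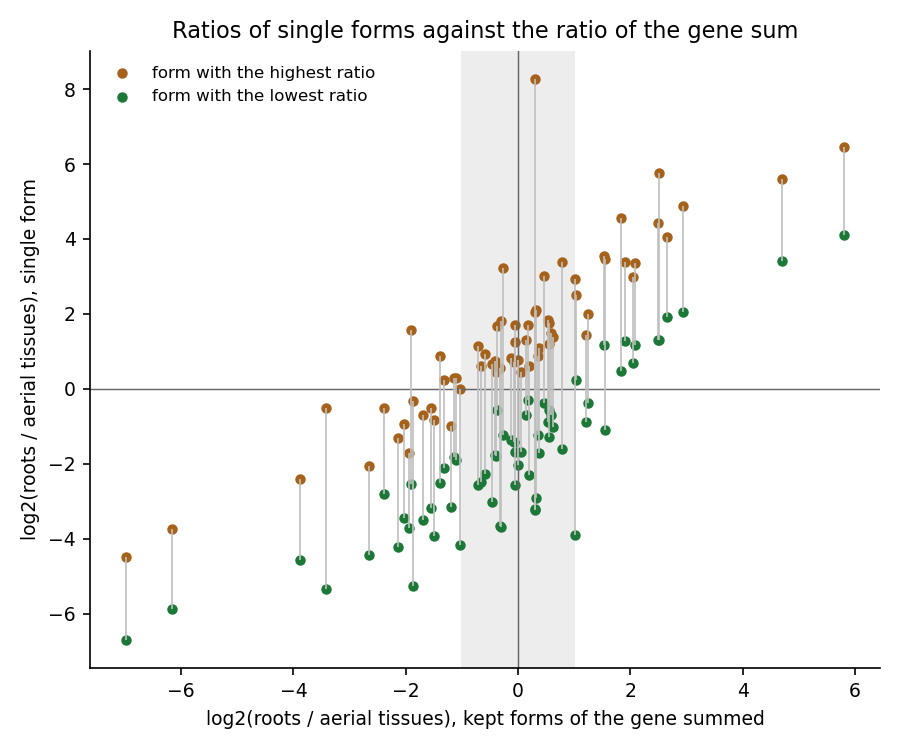
The horizontal axis gives the log2 root-over-aerial ratio of a gene's summed counts and the vertical axis that of its highest (brown) and lowest (green) form, joined by a line for each of the 67 genes. In the grey band, where 31 genes have sums within 2-fold, single forms reach from 12.8-fold higher in aerial tissues to 310-fold higher in roots.

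The leading form, the one with the highest TPM, was a different one in roots than in aerial tissues in 49 of the 67 genes (73.1%; 95% Wilson interval 61.5 to 82.3). The background was 32.9% over all genes with at least 2 kept forms. The rule favours this outcome, since it picks forms far apart in ratio. In 36 of the 49 genes the form with the highest ratio led in roots and the one with the lowest led in aerial tissues. The lead was at least 2 times the next form in both organs in 10 genes and at least 4 times in 2.

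The share of a gene's TPM that sat on other forms in roots than in aerial tissues had a median of 32.1% in the 67 genes, from 13.8% to 84.7%. In the other 1895 genes the median was 5.67%. The share was at least 50% in 11 of the 67 genes and in 4 of the other 1895. The form with the highest ratio held a median of 49.3% of its gene's TPM in roots and 16.8% in aerial tissues. The form with the lowest ratio held a median of 13.2% in roots and 44.2% in aerial tissues. These shares come from the same libraries whose ratios chose the genes and their extreme forms. They are a description, and nothing is read from the difference to the other genes.

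Among the genes of highest TPM whose lead changed, one with 8 kept forms of 697 to 4488 bases had no dominant form. It summed to 136 TPM in roots, against 96.1 TPM in aerial tissues. Its leading form in roots, 3341 bases long, had 30.1 TPM there and 16.65 TPM in aerial tissues. Its leading form in aerial tissues, 2335 bases long, had 13.7 TPM in roots, against 23.7 TPM in aerial tissues, 1.63-fold higher in aerial tissues in scaled counts (95% exact interval 1.32 to 2.03).

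Length was not used by the rule, and it is given as a description. The form with the highest ratio was the shorter of the extreme pair in 36 of the 67 genes (53.7%; 95% Wilson interval 41.9 to 65.1). In the other 1895 genes the share was 49.3% (95% Wilson interval 47.1 to 51.6), which lies within that interval. The extreme forms were further apart in length in the 67 genes, with a median difference of 313 bases against 174 in the other genes. They differed in length at least 2-fold in 13 of the 67 genes (19.4%; 95% Wilson interval 11.7 to 30.4) and in 169 of the others (8.92%; 7.72 to 10.3). Among genes with exactly 2 kept forms 7 of 28 did, against 7.05% of 1391. At the other end, 12 of the 67 pairs (17.9%) were within 50 bases of each other, close to the 352 of the other 1895 (18.6%).

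Members spanned a wide range of lengths and levels. Their length had a median of 1472 bases, from 256 to 4488, against 1728 for the 4601 forms of the other genes. The median TPM of a member was 7.185 in roots and 8.75 in aerial tissues. For forms of the other genes it was 8.75 in roots and 8.74 in aerial tissues. All members together held 0.522% of the root counts and 0.708% of the aerial counts. The 67 genes had 93 more TR forms with fewer than 50 counts, which are no members, out of 333.

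A second deposited set of root values, in a table of the whole series, was not used by the rule. All 240 members were found in it. The sources used here do not say how it was made, and the name of its root column ties it to the root sample. The order of the extreme pair by root FPKM was the same in this table as in the root file for 56 of the 67 genes (83.6%; 95% Wilson interval 72.9 to 90.6). In the other 1895 genes it was the same for 75.8% (95% Wilson interval 73.9 to 77.7). The form with the highest ratio had the higher root FPKM in 50 of 67 genes in the table and in 59 in the file. Among the other 1895 genes it was the higher one in 1006 (53.1%) in the table and in 1262 (66.6%) in the file. Among the 15 genes with opposed forms it was the higher one in the table in 12. The rule picks forms far apart in a ratio that uses the root file's counts. It thus favours a kept order and a higher root FPKM of the form with the highest ratio, and nothing is read from the difference to the other genes.

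Zeros were frequent in the table. It listed 58 of the 240 members at 0 (24.2%), against 17.3% of the forms of the other genes and 8.14% of kept TR unigenes that were the only kept form of their gene. Of the 181 members with at least 20 root counts in the file, 31 were listed at 0 (17.1%; 95% Wilson interval 12.3 to 23.3). The share was 14.8% of such forms of the other genes and 6.27% of such unigenes that were the only kept form of their gene. The member with most root counts among them was the shorter form of the most abundant gene, with 638 counts and 141 FPKM in the file. In 37 genes the table and the aerial file gave all 4 values above 0, and the spread computed from them was at least 4 in 26 and above 1 in 35. Its median was 7.66. In the other genes, 1329 gave all 4 values, and the spread so computed was at least 4 in 266 and above 1 in 801, with a median of 1.36. By the rule none of these reached 4 with the root file's counts. These 37 leave out the genes with a form listed at 0, and the aerial values are those the rule used.

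Unigene55749 stood at 338 FPKM in the table, against 268 FPKM in the root file, and Unigene55750 at 36.1 and 33.9 FPKM. Unigene63633 stood at 34.3 FPKM in the table, against 28.0 FPKM in the file, while Unigene63631 was listed at 0 in the table and at 1.07 FPKM in the file. The 515-base form of the gene of Unigene55749 was listed at 0 in the table, against 97.0 FPKM in the file. In 3 of the 15 genes with opposed forms the extreme pair changed order. The gene of 3 forms of nearly equal length was one. Its root-biased form of 1108 bases was listed at 0 in the table beside 42.2 FPKM in the file, and its aerial-biased form stood at 5.34 FPKM in the table, against 8.60 FPKM in the file. In the gene with 2 forms of 891 and 1930 bases, these stood at 37.8 and 44.6 FPKM in the table, against 61.5 and 24.3 FPKM in the file. In the gene with 9 forms, the highest form was listed at 0 and the lowest at 1.01 FPKM in the table, against 15.6 and 2.40 FPKM in the file. The table listed 4 of these 9 forms at 0, and the file held 49 to 58 root counts for them.

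**Figure D5:**
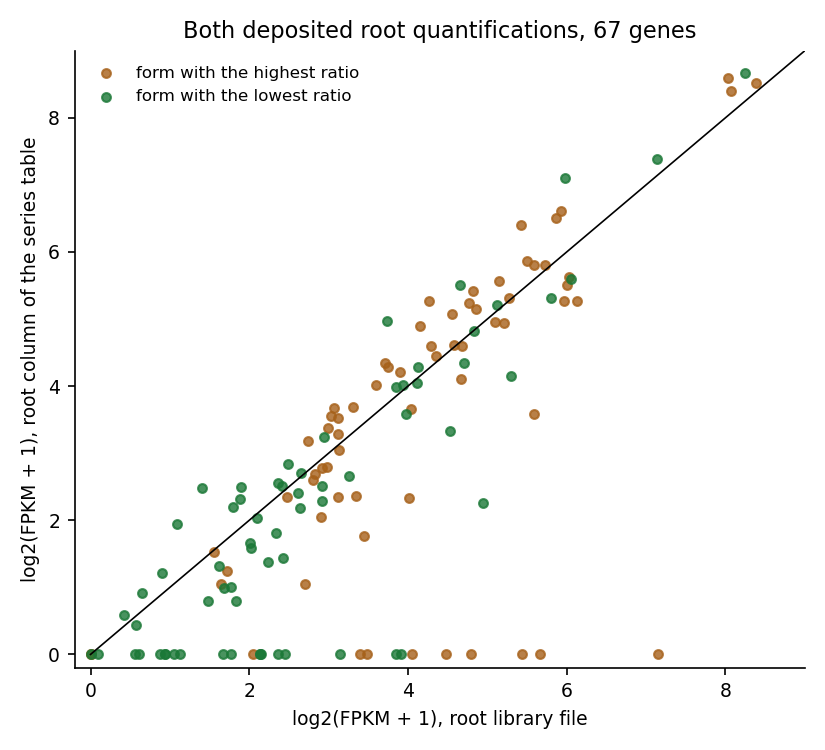
Each point is 1 form, placed by log2(FPKM + 1) in the root library file (horizontal) and in the root column of the series table (vertical). Brown points are the forms with the highest ratio and green points those with the lowest in the 67 genes. The line marks equal values, and the points along the bottom are forms listed at 0 in the table, 11 brown and 19 green.

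All expected counts in both files were whole numbers, with 0 exceptions among 163458 values. Forms of 1 gene can share sequence, and the sources used here do not say how reads that match several forms were assigned. Its part in the spreads was not tested, and the count of any single form is uncertain for this reason.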

How the data were processed

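Strand-specific libraries of poly(A)-selected RNA were sequenced, 1 of roots and 1 of aerial tissues. Per the submitters' processing notes, Trimmomatic and RSEM were used. The sources used here name no assembler and do not say how reads shared by forms were handled. The authors deposited expected counts, TPM and FPKM per unigene for each library, and a table of the series with a second root FPKM column. Of its per-sample values, 1 column was not used, because its name matches no label. The deposited lengths and expected counts were used as they stood; TPM served for shares within a gene and FPKM for the comparison of both root values.

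Ratios were taken with Python 3.11.15, pandas 2.3.3, numpy 2.4.6 and scipy 1.17.1, and figures drawn with matplotlib 3.10.9. Counts under 3 were set to 3, which is 0.713 CPM in roots and 0.561 CPM in aerial tissues. Intervals at 95% are exact for ratios and spreads, from the counts without the floor, and these cover counting error only. Those for shares are Wilson intervals, which treat the genes or forms as independent draws and hold no counting error of reads. The calculation was tested on simulated pairs of forms with more counts than most members have and with counting error only. That test does not cover genes with more forms, forms with fewer counts or reads shared by forms. Scaling alternatives used edgeR 4.0.16 and DESeq2 1.42.0 size factors in R 4.3.3, with no test. The members, lists and alternatives were chosen with earlier results of these data known.

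Genes described by rule were the 10 with the largest smaller near-end fold among genes with forms on opposite sides (identifiers for the first 2), the 5 with the largest near end of the spread, the 3 with most counts, the 3 with most forms, the 5 of highest TPM whose leading form differed, and the 3 on either side of the threshold. Cell type markers were not analysed here, since the unigenes carry no gene names.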

Additional observations from a re-analysis of the deposited data

How the results depend on the processing

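The number of genes followed the count minimum and the size asked for. At 50 counts 67 of 1962 genes with at least 2 kept forms entered. At a minimum of 1 count 490 of 4122 did, at 20 211 of 2957, at 100 28 of 1134 and at 500 3 of 120. A spread of at least 2 gave 278 genes, a spread of at least 8 gave 24, a near end of the interval of at least 4 gave 26, and pooling all genes of 1 TR number gave 171. Against 15 of 1962 genes with forms on opposite sides, 4-fold on each side gave 4. A minimum of 20 counts gave 47 of 2957 and of 100 counts 5 of 1134. Asking only that both intervals lie past equality gave 50 over all genes and 31 among the 67. Against 49 of 67 genes whose leading form differed, a lead of at least 2 times in both libraries gave 10 of 67. A minimum of 20 counts gave 146 of 211 and of 100 counts 20 of 28, so the number moved with the genes that entered. The other 16 of 32 alternatives stayed within 1.5 times the count or within the interval. Among them, a floor of 1 count gave 65 genes, TPM ratios 66 and forms of at least 500 bases 64. No paired analysis was possible because each organ had 1 library, and for the same reason no library could be left out. Depth limits single forms most: 10 members had under 3 counts in roots and 5 in aerial tissues.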

Other observations

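A pair of TR numbers, the wider grouping above the assembled gene, held 2 member genes each, and the other member genes had a TR number of their own, which makes 65 numbers in all. One number held the genes with 5 and 9 kept forms described above, with spreads of 38.2 and 44.9. The other held the gene of Unigene63633 and Unigene63631 and a gene with 3 kept forms and a spread of 5.71.

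Among the 39 member genes with at least 3 kept forms, the lowest form lay farther from the gene's median ratio in 20 and the highest form in 19. The highest form was a median of 3.19 times the gene's median, and the gene's median a median of 2.69 times the lowest form.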
